A study of Mus musculus with 18 samples.

Results

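The response of cultured mouse myotubes to dexamethasone alone was measured as the difference between 3 libraries of dexamethasone-treated myotubes and 3 libraries of vehicle control myotubes. They are 6 of the 18 libraries of a series that also holds ginsenoside Rc treatments. The cells were C2C12, an established mouse myoblast line, which fuse into multinucleated myotubes and were differentiated for 5 days in 2% horse serum. Treated myotubes received 0.1% DMSO for 12 h and then 200 µM dexamethasone, a synthetic glucocorticoid, for 24 h. Control myotubes received 0.1% DMSO for 36 h. Both groups therefore shared the line, the differentiation and a first period in the vehicle, and neither received ginsenoside. RNA carrying poly-A tails was sequenced in strand-directional libraries with 100 bp paired ends. Whether replicates were grown as separate cultures is not stated, so the p-values measure only how far these libraries vary, and that variation may be technical.

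The libraries held 41240857 to 44016319 estimated read counts with dexamethasone and 36523033 to 44021589 in controls. All 15436 genes that passed a filter on low counts, of 48795 in the table, are the members described here. Levels are counts per 1e+06 counts (CPM) after scaling for library composition, and each ± after a level is the SD over n = 3 libraries. A gene is called raised or lowered at an adjusted p below 0.05 in the edgeR quasi-likelihood test, with Benjamini-Hochberg adjustment over all genes tested. The ± after a log2 fold change is its standard error. Markers fitted the label. Acta1, the skeletal alpha-actin, stood at 6836 ± 428 CPM with dexamethasone and 5990.4 ± 229 CPM in controls, and the muscle creatine kinase Ckm at 522 ± 40.9 CPM with dexamethasone and 307 ± 18.4 CPM in controls. Mymk, the membrane protein myomaker that drives fusion, stood at 1449 ± 25.6 CPM with dexamethasone and 1236 ± 25.3 CPM in controls.

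Glucocorticoids cross the cell membrane and bind the glucocorticoid receptor, a transcription factor held by chaperones in the cytoplasm, which then moves to the nucleus and binds response elements as a dimer. In skeletal muscle the hormone is known for lowering protein synthesis and raising protein breakdown, for opposing insulin and IGF-1, for restraining glucose oxidation and for damping inflammation. High doses given for long times cause muscle wasting, and dexamethasone on C2C12 myotubes is a common cell model of it.

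Dexamethasone moved a large share of the measured transcriptome, mostly by small amounts. Of 15436 genes tested, 3177 were raised (20.6%) and 3578 lowered (23.2%), and 3995 of the called genes differed by less than 1.5-fold. The 20.6% and 23.2% are the background for each list count below. More than 2-fold changes were found for 534 raised genes (3.46%) and 991 lowered genes (6.42%). At more than 16-fold the order turned, with 60 raised and 29 lowered genes. For 59.3% of the genes tested every dexamethasone library lay on the same side of every control library. Without a correction for library composition 6761 calls split into 2368 raised and 4393 lowered genes, and the median of all genes was -0.07 instead of -0.01, so small differences depend on the scaling.

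Genes raised more than 2-fold took 3.8%, 3.61% and 3.75% of the measured CPM in the dexamethasone libraries, against 1.22%, 1.21% and 1.22% in controls. Those lowered more than 2-fold took 0.918%, 1.04% and 0.982% with dexamethasone, against 2.96%, 2.97% and 2.91% in controls. Of 13434 coding genes 22.7% were raised and 24.7% lowered, and of 1045 long noncoding genes 7.27% were raised and 16.6% lowered. More than 2-fold, 488 coding genes were raised and 882 lowered, and 28 long noncoding genes were raised and 79 lowered. Calls depend on the read level, which was not compared between the 2 kinds. The shares therefore do not show that coding genes responded more. Coding genes raised more than 2-fold had a median average level of 1.87 log2 CPM and those lowered more than 2-fold 1.36, against 4.6 for all coding genes tested, so the large changes lay mainly among genes of low level.

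**Figure D1:**
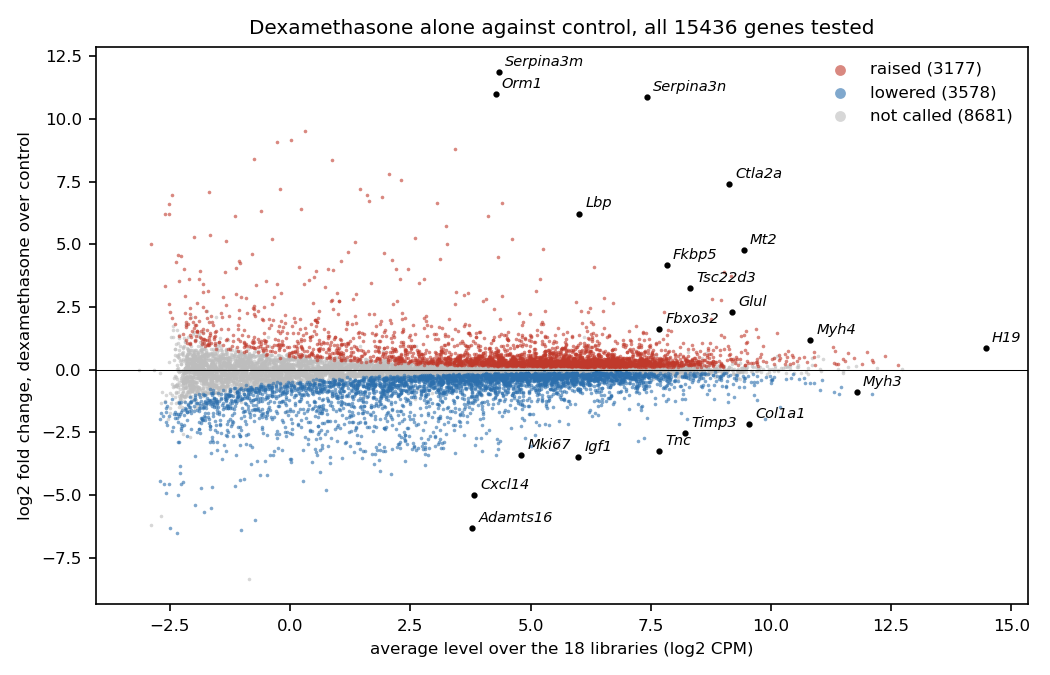
Log2 fold change of dexamethasone over control (vertical axis) against the average level over the 18 libraries in log2 CPM (horizontal axis) for the 15436 genes tested, with raised genes in red, lowered genes in blue, genes not called in grey and 20 genes labelled. The largest rises, such as Serpina3n at 10.87, exceed the largest falls among labelled genes, such as Adamts16 at -6.33; fitted values of Serpina3m and Orm1 rest on a total of 1 and 2 control counts.

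The 3 dexamethasone libraries were not equally far from the controls. Replicate 2 lay nearest to the control level for 160 of 292 genes raised more than 2-fold with an average of at least 1 log2 CPM (54.8%) and for 310 of 497 genes lowered more than 2-fold (62.4%). Replicate 1 was nearest for 26.7% of the raised genes and 14.1% of the lowered ones. Without replicate 2, 2886 genes were raised and 3277 lowered. The SD of the log2 difference between libraries, over genes with an average of at least 1 log2 CPM, was 0.226 between dexamethasone replicates 1 and 2 and 0.166 between replicates 1 and 3, and it ran from 0.171 to 0.203 between controls.

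Classic targets of the glucocorticoid receptor rose together while the receptor's own mRNA did not pass the test in the compared libraries. Nr3c1, which encodes the receptor, stood at 93.9, 97.4 and 95.5 CPM with dexamethasone, against 97.8, 98.3 and 105 CPM in controls (log2 fold change -0.07 ± 0.05, adjusted p = 0.23; 95% interval -0.17 to 0.03); without the composition correction its edgeR adjusted p was 0.031. In the libraries that also received ginsenoside Rc, Nr3c1 was called lowered with dexamethasone, with a log2 fold change of -0.21 at 10 µM (edgeR adjusted p = 0.00092) and -0.14 at 20 µM (edgeR adjusted p = 0.018), and the test of the difference from the response without ginsenoside did not pass (edgeR adjusted p = 1 and 0.89). Among 14 genes of the receptor, its chaperones and its cofactors, 4 were raised (28.6%) and 1 lowered (7.14%), beside 20.6% and 23.2% of all genes. The raised ones included Hsd11b1, the enzyme that reactivates inactive glucocorticoid in cells (log2 fold change 0.7 ± 0.08, edgeR adjusted p = 1.4e-06), and Hsd11b2, which inactivates glucocorticoid (1.53). Hsd11b1 stood at 66.1 against 40.7 CPM and Hsd11b2, a gene of low level, at 0.995 against 0.338 CPM (dexamethasone against control). The coactivators Ncoa1 (0.2) and Ep300 (0.42) rose as well. The nuclear receptor Nr1d1, a clock repressor, fell (-0.57). The chaperone genes Hsp90aa1 (0.04), Hsp90ab1 (0.11), Fkbp4 (0.08) and Ptges3 (-0.002) did not pass. Hsp90ab1 passed by DESeq2 (adjusted p = 0.029), and with only the 6 compared libraries in the model 7 of the 14 genes were raised.

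Fkbp5, whose protein lowers the receptor's affinity for hormone as part of a feedback loop, was measured at 438, 434 and 414 CPM with dexamethasone, against 22.9, 24.9 and 23.5 CPM in controls. Tsc22d3, which encodes the anti-inflammatory leucine zipper protein GILZ, was at 571, 528 and 572 CPM with dexamethasone, against 58.3, 58.6 and 57.8 CPM in controls. For both genes the 2 groups lay far apart and the libraries within a group close together. Their log2 fold changes were 4.17 ± 0.05 and 3.26 ± 0.06. Of 31 direct targets tested, 26 were raised, 22 of them more than 2-fold, and 2 were lowered. Their median was 1.67, where the median of all genes was -0.01. Tat, a liver target, had at most 1 count in any of the 6 libraries and was not tested. Zbtb16, a zinc finger repressor known as PLZF, had no count in any control library and 68, 78 and 75 counts with dexamethasone, at least 72-fold higher when the control group is set at a floor of 3 counts. Hif3a, which restrains the hypoxia response, had 64, 78 and 65 counts with dexamethasone and 0, 1 and 0 in controls, a ratio of 202 (95% exact interval 35.9 to 8025). Such intervals and floors cover counting error only.

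Klf15, a transcription factor that drives amino acid breakdown in muscle, stood at 11.3, 10.6 and 11.3 CPM with dexamethasone, against 0.267, 0.331 and 0.254 CPM in controls. Klf9, a related factor that rises with glucocorticoid in many cells, stood at 117, 106 and 110.2 CPM with dexamethasone, against 38.9, 40.5 and 40.3 CPM in controls, and the kinase gene Sgk1 at 146, 139 and 142 CPM with dexamethasone, against 44, 45.5 and 44.8 CPM in controls. Their log2 fold changes were 5.26, 1.47 and 1.67, with no overlap between groups. Per1, a clock gene (1.92), Errfi1, an inhibitor of EGF receptor signalling (1.73), Ddit4, which inhibits mTOR and is also called REDD1 (1.23), and Dusp1, a MAP kinase phosphatase (1.15), were raised too. Cdkn1c, a cell cycle inhibitor that glucocorticoid raises in other cells, was lowered (5.63, 5.73 and 5.45 CPM with dexamethasone, against 10.9, 10.5 and 11 CPM in controls; -0.94), as was Angptl4, an inhibitor of lipoprotein lipase (-0.71). Without dexamethasone replicate 3, 4 targets were lowered rather than 2.

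**Figure D2:**
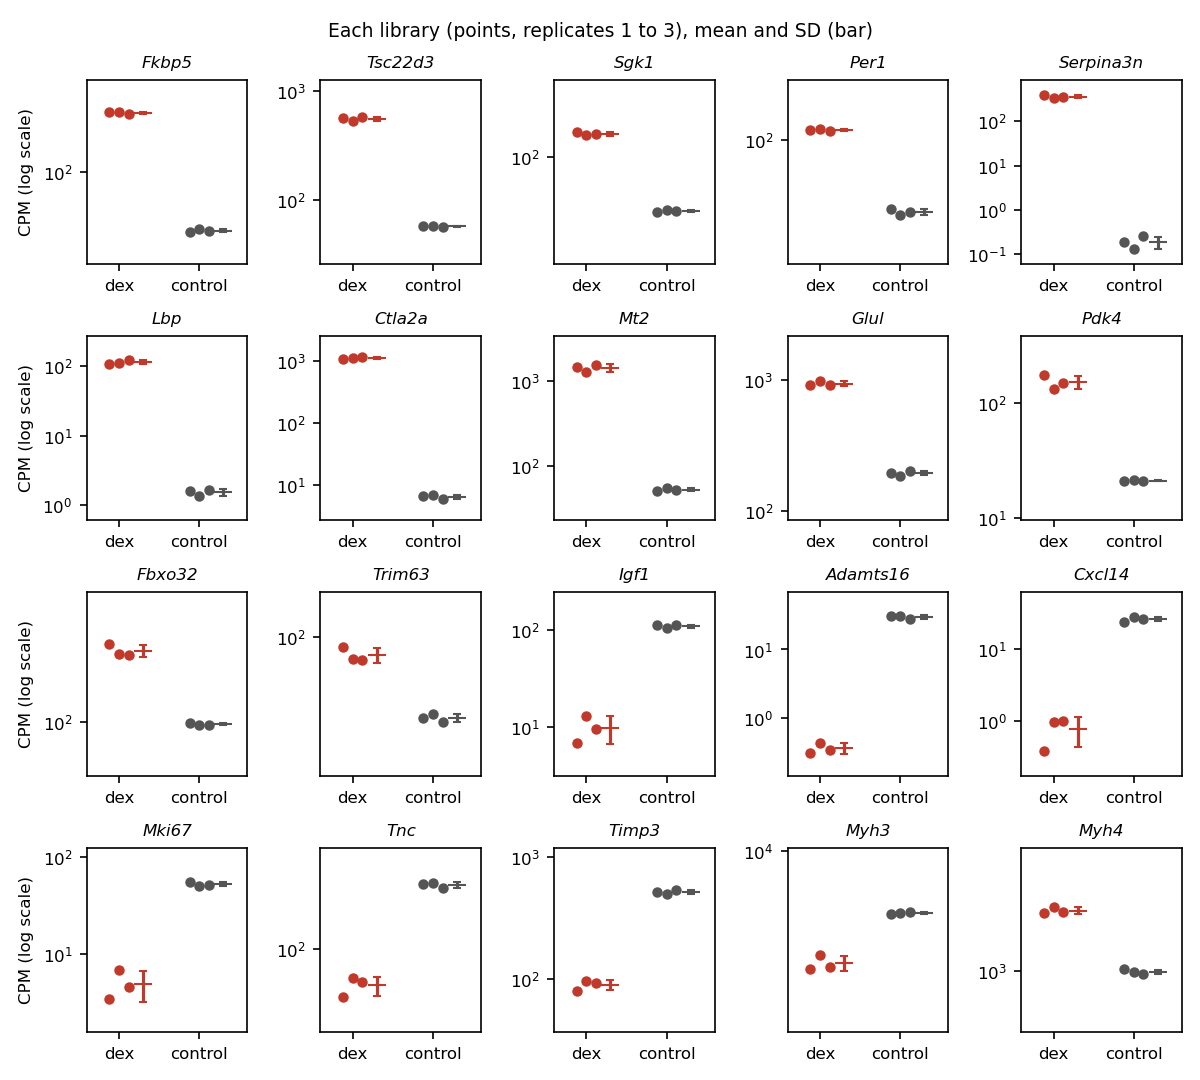
CPM on a log scale for 20 genes in the 3 dexamethasone libraries (red points, left) and the 3 control libraries (grey points, right), with the mean and SD as a bar beside each group. The groups are separate for all 20 genes, and among dexamethasone libraries replicate 2 is nearest the controls for Igf1, Mki67 and Tnc.

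The response element of the receptor was counted in the promoters of raised, lowered and other genes. The element is an inverted repeat with a gap of 3 bases. RefSeq promoters (build GRCm38.p6, 250 bases before to 50 after each start) were matched by symbol to 11031 of the 15436 genes. The full palindrome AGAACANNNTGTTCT, with N for any base, occurred in 1 of these genes, and the shorter core GNACANNNTGTNC, which contains no base outside the full palindrome and matches wherever it does, in 45 (0.408%). Each pattern reads the same on both strands. The core was present in 7 of 120 genes raised more than 4-fold (5.83%), in 9 of 369 raised more than 2-fold (2.44%), in 1 of 710 lowered more than 2-fold (0.141%) and in 17 of 5936 not called (0.286%). These are counts of letters in a 300-base window, not of bound sites, and they were not tested.

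The 9 matches in genes raised more than 2-fold are shown with 6 bases on either side, in the direction of transcription, with the 13 bases of the core in capitals. They are the sequences behind the counts above.
Sgk1: cggaaaGAACAGAATGTTCtcggag
Trim63: ggctctGAACAGTCTGTTCttgttt
Mt1: ctatagGGACATGATGTTCcacacg
Serpina3n: cacagaGCACAGCTTGTCCatgcca
Serpina3c: cacagaGCACAGCTTGTCCatgcca
Slc10a6: tccctaGAACACGATGTGCcactgt
Amy1: atcacgGCACAGCCTGTTCtctccc
Folh1: ttctgaGTACAGGCTGTACtatttg
Tinagl1: agtcgcGTACACATTGTCCttaagc

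Sgk1 alone held the full palindrome. The cores of Serpina3n and Serpina3c, genes for secreted serine protease inhibitors with Serpina3m between them on chromosome 12, were identical and lay 72 and 69 bases before their starts. In Mt1, which encodes a zinc-binding metallothionein, the centre of the core lay 88 bases before the start, in Sgk1 182 and in Trim63, the gene of the ubiquitin ligase MuRF1, 202. The lowered gene with a core was Fam107a (log2 fold change -1.24). The whole promoters of Sgk1, Trim63 and Serpina3n are given 5′ to 3′ with the same capitals, since these genes recur below.
Sgk1 (chr10:21993640-21993939, plus strand): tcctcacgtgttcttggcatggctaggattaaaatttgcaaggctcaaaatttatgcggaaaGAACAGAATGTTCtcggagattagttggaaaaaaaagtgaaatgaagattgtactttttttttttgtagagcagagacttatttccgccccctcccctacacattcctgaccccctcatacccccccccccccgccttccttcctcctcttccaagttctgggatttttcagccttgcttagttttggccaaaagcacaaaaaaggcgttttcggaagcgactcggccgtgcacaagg
Trim63 (chr4:134314870-134315169, plus strand): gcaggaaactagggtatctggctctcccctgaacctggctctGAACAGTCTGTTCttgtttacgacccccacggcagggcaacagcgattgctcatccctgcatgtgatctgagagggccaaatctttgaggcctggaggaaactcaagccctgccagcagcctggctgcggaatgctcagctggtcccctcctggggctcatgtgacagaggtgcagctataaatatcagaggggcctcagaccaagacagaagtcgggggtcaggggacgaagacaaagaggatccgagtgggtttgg
Serpina3n (chr12:104406458-104406757, plus strand): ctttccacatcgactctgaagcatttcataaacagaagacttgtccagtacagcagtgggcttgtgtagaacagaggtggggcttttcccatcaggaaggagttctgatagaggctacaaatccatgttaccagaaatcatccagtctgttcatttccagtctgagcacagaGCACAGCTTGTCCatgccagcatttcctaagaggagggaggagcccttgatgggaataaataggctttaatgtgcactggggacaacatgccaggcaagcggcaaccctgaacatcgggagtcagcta

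**Figure D3:**
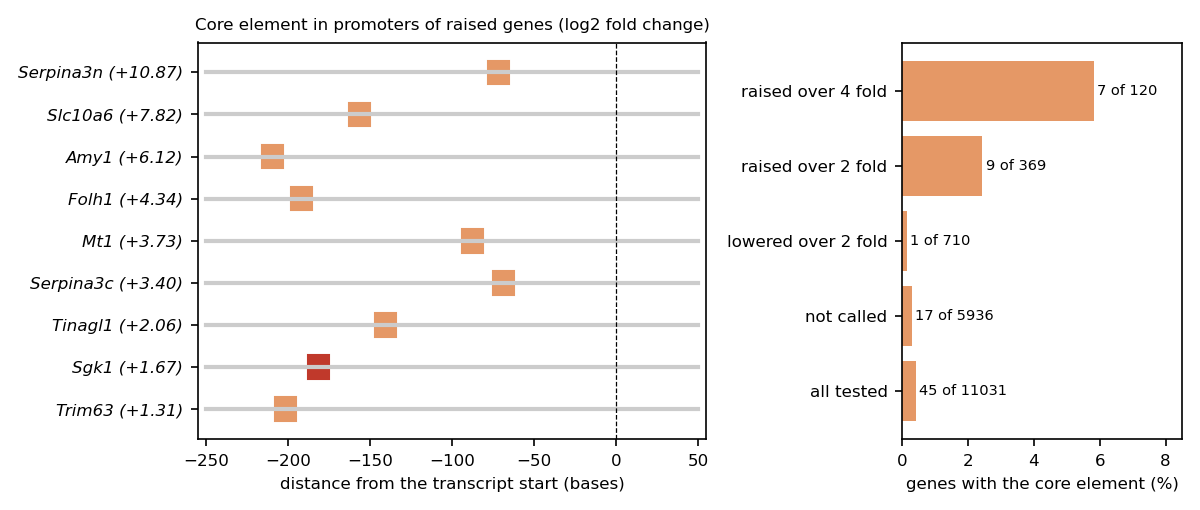
Left, position of the core element in promoters of the 9 genes raised more than 2-fold that hold it, as distance in bases from the transcript start (dashed line), with the full palindrome of Sgk1 in red. Right, percent of genes whose promoter holds the core, by set, with counts beside the bars; it was 5.83% for genes raised more than 4-fold and 0.408% for all genes with a promoter.

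The largest rises included genes for secreted proteins of the acute phase, which the liver releases in inflammation. Serpina3n stood at 388, 329 and 357 CPM with dexamethasone, against 0.187, 0.132 and 0.254 CPM in controls (log2 fold change 10.87 ± 0.12, adjusted p = 1.8e-20). Its neighbour Serpina3m had 1864, 1592 and 1765 counts with dexamethasone and 0, 0 and 1 in controls, a ratio of 5100.0 (95% exact interval 915 to 201500.0). Orm1, the acute phase protein orosomucoid, had 1546, 1654 and 1766 counts against 0, 1 and 1, a ratio of 2426 (95% exact interval 671 to 20030.0). Serpina3m and Orm1 were under the floor of 3 counts in every control library, and Serpina3n was low there too, at 7, 6 and 10 counts. Haptoglobin, Hp, which binds free haemoglobin, stood at 20.7, 19.7 and 19.2 CPM with dexamethasone, against 0.0267, 0 and 0.101 CPM in controls, and Lbp, which binds bacterial lipopolysaccharide, at 109, 113 and 123 CPM with dexamethasone, against 1.6, 1.35 and 1.67 CPM in controls.

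Of 23 tested genes of the complement, acute phase and serpin list, 12 were raised, 10 of them more than 2-fold, and 5 lowered (median 0.44). Their summed level was 1877, 1735 and 1839 CPM with dexamethasone, against 477, 468 and 494 CPM in controls. The lowered ones changed less, down to -0.8 for the intracellular protease inhibitor Serpinb6b. The 15 largest rises were ranked among called genes with an average of at least 1 log2 CPM and no overlap of the groups. They also included Slc10a6, a transporter of sulfated steroids (8.08 against 0.0305 CPM, dexamethasone against control), Sult1a1, a phenol sulfotransferase (5.32 against 0.0316 CPM), and Mettl21e, a muscle methyltransferase gene (8.32 against 0.0405 CPM). They further included Angptl7, a secreted angiopoietin-like protein (5.52 against 0.0405 CPM), Crispld2, a secreted protein (15.1 against 0.148 CPM), the junction protein periplakin, Ppl (43.8 against 0.438 CPM), and the amylase gene Amy1 (32.7 against 0.462 CPM). Ctla2a, which encodes an inhibitor of cysteine proteases, reached the highest level of the 15 and stood at 1080.4, 1089 and 1128 CPM with dexamethasone, against 6.69, 6.73 and 5.93 CPM in controls (log2 fold change 7.41 ± 0.13, adjusted p = 1.1e-17). Members of the Serpina3, Orm and Ctla2 families are similar in sequence, and reads may be divided between them with error.

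Some of the strongest changes sat side by side on chromosomes. Runs of at least 3 neighbouring tested genes that all changed more than 2-fold in the same direction were counted, and there were 38. Of these 14 were raised, with 51 of the 534 genes raised more than 2-fold, and 24 lowered, with 85 of the 991 lowered more than 2-fold. Whether this exceeds the number in a random gene order was not tested. These runs were picked by the fold changes themselves and are a description. On chromosome 4 (GRCm38 positions 63344560 to 63365878) the 3 orosomucoid genes Orm1, Orm3 and Orm2 lay within 21.3 kb, at 39.7 against 0.0158 CPM, 5.59 against 0.0494 CPM and 7.12 against 0.0557 CPM (dexamethasone against control). On chromosome 7 a stretch of the kallikrein cluster held 6 raised genes, among them Klk1b22 (7.36 against 1.55 CPM, log2 fold change 2.25), Klk1b26 (3.07) and Klk1b27 (4.11), which encode secreted serine proteases.

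Runs of lowered genes included an interferon-inducible family and a family of protein-modifying enzymes. On chromosome 5 a stretch of 7 genes held the guanylate-binding protein genes, GTPases of antiviral defence, with Gbp9 at 0.459, 0.898 and 1.41 CPM with dexamethasone, against 12.6, 12.7 and 12.9 CPM in controls. Gbp8 (-3.21), Gbp4 (-3.71), Gbp10 (-1.72), Gbp6 (-1.58) and Gbp11 (-2.42) were lowered beside it. The peptidyl arginine deiminase genes on chromosome 4, whose enzymes convert arginine to citrulline in proteins, were lowered at all 5 tested members, Padi1 (-4.2), Padi2 (-1.37), Padi3 (0.572 against 10.4 CPM, -4.17), Padi4 (-2.14) and Padi6 (-1.27, with an edgeR adjusted p of 0.053 without control replicate 2). Most members of these runs are paralogs of each other, and how reads were split between them cannot be checked here.

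**Figure D4:**
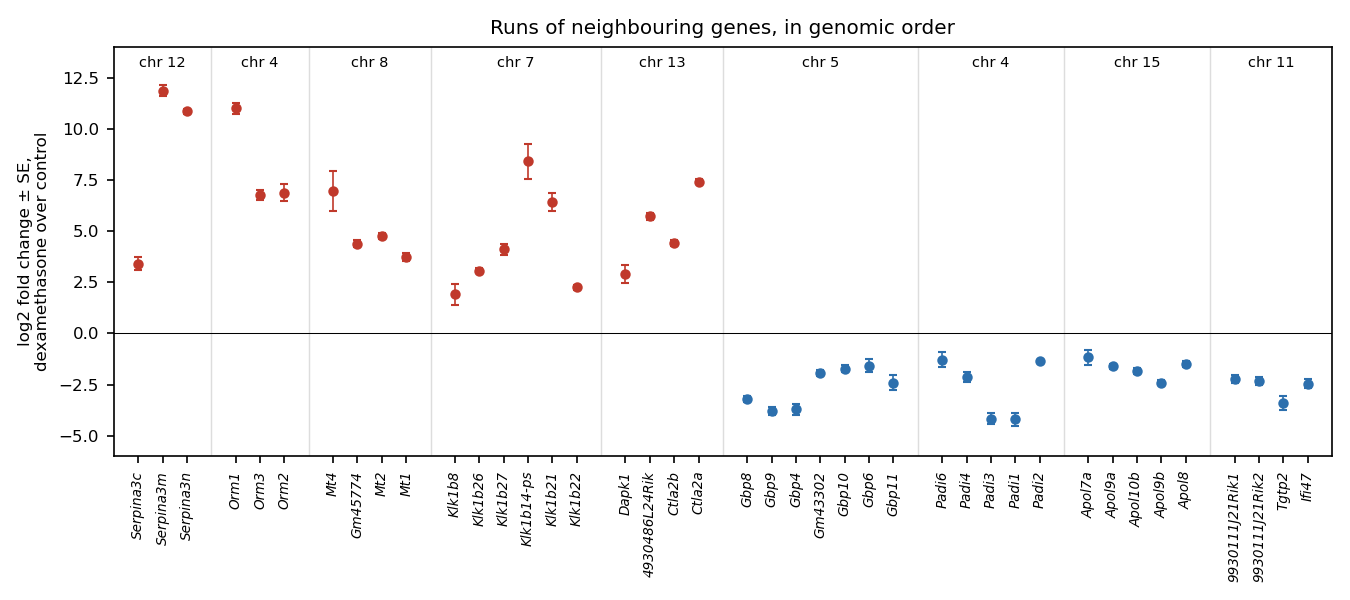
Log2 fold change of dexamethasone over control with its standard error for each gene of 9 runs of neighbouring genes, in genomic order within each run, with raised runs in red on the left and lowered runs in blue on the right. All genes of a run lie on the same side of 0 by construction; fitted values of genes with almost no control counts, such as Serpina3m, Orm1 and Klk1b14-ps, depend on the prior count.

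Among called genes with an average of at least 1 log2 CPM and no overlap of the groups, the largest falls combined signalling and matrix genes with genes of cell division. Adamts16, a secreted metalloprotease, stood at 0.314, 0.437 and 0.347 CPM with dexamethasone, against 30.6, 30.9 and 27.8 CPM in controls (log2 fold change -6.33 ± 0.15, adjusted p = 5.4e-16), and Cxcl14, a chemokine, at 0.387, 0.967 and 1.02 CPM with dexamethasone, against 23.5, 27.1 and 25.7 CPM in controls (log2 fold change -5.0 ± 0.23, adjusted p = 9.8e-12). Every dexamethasone library lay far below every control library for both genes. Igf1, the main growth factor for muscle, was at 6.82, 13 and 9.64 CPM with dexamethasone, against 113, 106 and 113 CPM in controls, and Mest, an imprinted gene of growth, at 3.17, 3.43 and 3.22 CPM with dexamethasone, against 34.3, 34.6 and 35.3 CPM in controls. Among the other largest falls Sfrp4 encodes a Wnt antagonist (-3.77), and Pbk (-3.67), Depdc1a (-3.59), Sgo1 (-3.52), Nuf2 (-3.43) and Mki67 (-3.41) act in or mark cell division.

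Muscle atrophy genes rose in part. Fbxo32, the gene of the ubiquitin ligase atrogin-1, stood at 327, 282 and 276 CPM with dexamethasone, against 97.8, 95.4 and 95.6 CPM in controls, and Trim63 stood at 86.4, 72.7 and 72 CPM with dexamethasone, against 31, 32.9 and 29.4 CPM in controls. Replicate 1 was the highest dexamethasone library for both ligases, and neither gene's groups overlapped (log2 fold change 1.62 ± 0.11, adjusted p = 1.8e-09, and log2 fold change 1.31 ± 0.14, adjusted p = 7.6e-07). Of 31 genes in the atrophy list 15 were raised, against 20.6% of all genes, and 2 lowered, with a median of 0.14. Cblb, a ligase that targets the insulin signalling protein IRS-1, was raised (1.24), as was the muscle-specific Fbxo40 (1.07), which does the same. Foxo3, a transcription factor that drives atrophy genes, rose (225, 235 and 219 CPM with dexamethasone, against 117, 117 and 119.7 CPM in controls; 0.94), while its relative Foxo1 (-0.39) and the stress factor Atf4 (-0.4) fell. Mstn, the growth inhibitor myostatin, did not pass at 0.24 ± 0.129 CPM with dexamethasone and 0.0975 ± 0.0758 CPM in controls (log2 fold change 1.26 ± 0.57, adjusted p = 0.083), but did without dexamethasone replicate 1 (edgeR adjusted p = 0.024) or control replicate 3 (0.033). In contrast to the ligases, genes of the proteasome differed little, with 5 of 32 raised by at most 0.38 (Psme4, a proteasome activator) and 0 lowered. Their median of 0.04 turned negative without the composition correction. Without dexamethasone replicate 1 or 3 or control replicate 1 only 3 were raised.

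Several genes whose products restrain insulin and mTOR signalling were raised, and the 2 IGF ligands went opposite ways. Grb10, an adaptor that dampens insulin and IGF receptors, stood at 6.5, 7.39 and 7.24 CPM with dexamethasone, against 0.453, 0.486 and 0.761 CPM in controls (log2 fold change 3.63 ± 0.15, adjusted p = 1e-12). Pik3ip1, an inhibitor of PI3 kinase, was at 61.7, 44.1 and 48.5 CPM with dexamethasone, against 17.5, 18.4 and 18 CPM in controls, and Sesn1, a stress protein that inhibits mTOR complex 1, at 117, 91.7 and 100.2 CPM with dexamethasone, against 42.2, 42 and 42.2 CPM in controls. In each of these genes the lowest dexamethasone library exceeded the highest control. Of 39 genes of insulin, IGF and mTOR signalling tested, 20 were raised and 13 lowered (median 0.10). Igfbp3 (4.68 against 19.9 CPM, dexamethasone against control; -2.09) and Igfbp4 (37.1 against 114 CPM; -1.62), secreted proteins that bind IGF, fell with Igf1, whereas Igf2, the growth factor next to H19, rose (1019 against 667 CPM; 0.61). The restraining genes did not all rise: Sesn2 (-0.51) and Sesn3 (-0.4), relatives of Sesn1, fell, and Ddit4l, a relative of Ddit4, fell too (-0.75). Per kilobase of exon the largest gain of all genes passing the naming rule was in H19, an imprinted noncoding RNA, at 11075 CPM per kb with dexamethasone and 6133 in controls.

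Enzymes and transporters of amino acids changed in both directions. Glul, glutamine synthetase, stood at 916, 993 and 918 CPM with dexamethasone, against 194, 186 and 201 CPM in controls (log2 fold change 2.28 ± 0.05, adjusted p = 4.4e-16), and Prodh, which starts proline breakdown, at 4.28, 3.59 and 4.07 CPM with dexamethasone, against 0.693, 1.08 and 0.913 CPM in controls (log2 fold change 2.13 ± 0.17, adjusted p = 5.7e-09). Bcat2, which starts the breakdown of branched-chain amino acids, was raised (0.61), as was Sms, spermine synthase (0.66). On the lowered side were Pycr1, which makes proline (7.5, 7.67 and 8.13 CPM with dexamethasone, against 18.1, 19.5 and 18.7 CPM in controls; -1.27), the asparagine synthetase gene Asns (-0.67) and the amino acid transporter genes Slc7a5 (-0.74) and Slc7a1 (-0.66). In all 11 of 42 genes tested were raised and 11 lowered, shares of 26.2% each beside 20.6% and 23.2% of all genes, and the list's median of 0.02 changed sign without the composition correction.

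Pdk4, the kinase that switches off pyruvate dehydrogenase and so glucose oxidation, was at 176, 134 and 151 CPM with dexamethasone, against 20.9, 21.1 and 21.1 CPM in controls (log2 fold change 2.87 ± 0.13, adjusted p = 7.6e-12). Its counterpart Pdp1, a phosphatase that switches the enzyme on, was raised as well, at 143, 137 and 139 CPM with dexamethasone, against 54.8, 55.7 and 57 CPM in controls (log2 fold change 1.32 ± 0.05, adjusted p = 5.8e-13). The insulin-regulated glucose transporter Slc2a4 stood at 11.2 against 3.56 CPM (dexamethasone against control; 1.66). Pdk4 and Pdp1 therefore both had higher mRNA, Pdk4 by the larger factor. Ppp1r3c, which targets a phosphatase to glycogen, rose (1.3). Car9, a carbonic anhydrase induced by hypoxia (-1.52), Vegfa, the main angiogenic factor (-0.54), Pdk3 (-0.55) and the glucose transporter Slc2a3 (-0.64) fell. Of 36 genes of glucose use 12 were raised (33.3%) and 7 lowered (19.4%), beside 20.6% and 23.2% of all genes. The median of 0.05 turned negative without the composition correction.

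In both lists of fat metabolism more genes were raised than lowered. Plin4, a coat protein of lipid droplets, stood at 43.4, 40.6 and 40.1 CPM with dexamethasone, against 0.986, 1.13 and 1.24 CPM in controls (log2 fold change 5.2 ± 0.10, adjusted p = 3.8e-17). Fabp4, a fatty acid carrier of adipocytes, had 170, 137 and 152 counts with dexamethasone and 0, 1 and 0 in controls, a ratio of 448 (95% exact interval 80.1 to 17750.0). Cebpa, Cebpd and Cebpb, transcription factors of adipocyte formation, were raised by 2.34, 1.92 and 1.11 on the log2 scale, while G0s2, an inhibitor of the lipase ATGL, fell to 8.55 CPM with dexamethasone, against 43.1 CPM in controls (-2.33). Some adipocyte markers were at or near 0: Plin1, Cidec, Cfd and Lep had 0 counts in all 6 libraries and Adipoq at most 1 in any library. Pparg, also an adipocyte marker, is not reported here. The list summed to 1037, 952 and 996 CPM with dexamethasone, against 763, 753 and 773 CPM in controls. Of 25 tested genes of this list 17 were raised and 4 lowered (median 0.43). Of 38 genes of fatty acid oxidation and uptake 18 were raised and 5 lowered (median 0.16). Among the raised were the mitochondrial fatty acid importer Cpt1b (1.07), the carrier Fabp3 (0.99), the activating enzyme Acsl1 (0.99) and the fatty acid receptor Cd36 (0.87).

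Sterol and fatty acid synthesis genes rose as a group, and by amounts that differed between the 3 treated libraries. Idi1, an enzyme of the mevalonate pathway, stood at 378, 179.7 and 273 CPM with dexamethasone, against 102, 107 and 107 CPM in controls (log2 fold change 1.39 ± 0.20, adjusted p = 3.6e-05), and Mvd, another, at 97.2, 49.2 and 68.9 CPM with dexamethasone, against 29.1, 29.7 and 26.2 CPM in controls. In both genes replicate 1 was highest and replicate 2 lowest, yet replicate 2 exceeded every control. The summed level of the 41 genes tested was 11489, 7960.1 and 9434 CPM with dexamethasone, against 6659, 6647 and 6594 CPM in controls. Of the 41, 35 were raised, 9 of them more than 2-fold, and 2 lowered (median 0.68); without replicate 2, 36 were raised and 2 lowered. Tm7sf2, a sterol reductase (1.41), and Abca1, a cholesterol exporter (1.8), were also among the largest rises, and Srebf1, a transcription factor of lipid synthesis (-0.37), and Me1, malic enzyme (-0.44), were the 2 that fell.

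Myosin heavy chain genes, which muscle uses in turn as it matures, changed in both directions. Myh3, the embryonic form, stood at 2341, 2759 and 2392 CPM with dexamethasone, against 4598, 4680.2 and 4719 CPM in controls (log2 fold change -0.9 ± 0.08, adjusted p = 7.2e-08). Myh8, the neonatal form, stood at 1324, 1475 and 1443 CPM with dexamethasone, against 511, 525 and 526 CPM in controls (log2 fold change 1.44 ± 0.05, adjusted p = 2.8e-13). Myh4, a fast adult form, stood at 2201, 2378 and 2219.8 CPM with dexamethasone, against 1026, 992 and 968 CPM in controls (log2 fold change 1.19 ± 0.07, adjusted p = 1.6e-10). Myh3 was thus lower and Myh8 and Myh4 higher in every dexamethasone library than in any control. Other fast adult forms are not reported here. Per kilobase of exon Myh3 and Myh4 stood at 412 and 377 CPM per kb with dexamethasone and at 770.3 and 165 in controls. Of 51 sarcomere genes 31 were raised and 9 lowered (median 0.28), or 5 lowered without dexamethasone replicate 1. Cmya5, a protein of the sarcomere's edge (1.96), and Mybpc1, slow myosin-binding protein C (1.56), led the rises with Myh8, and Ankrd1, a stretch-responsive titin partner (-0.63), Xirp2, an actin-binding protein (-0.6), and the cardiac actin gene Actc1 (-0.38) fell; Actc1 had an edgeR adjusted p of 0.054 without dexamethasone replicate 1.

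Among 41 genes of excitation, calcium handling and the neuromuscular junction, 21 were raised and 9 lowered (median 0.18). Atp2a1, the fast-muscle calcium pump SERCA1, was at 2869, 3108 and 3008 CPM with dexamethasone, against 1603, 1626 and 1573 CPM in controls (log2 fold change 0.9 ± 0.05, adjusted p = 3.4e-11), and Mrln, which encodes myoregulin, a small inhibitor of that pump, was raised too (4.45 against 1.99 CPM, dexamethasone against control; 1.16). Pump and inhibitor therefore rose together. Ache, acetylcholinesterase (-1.46), Chrne, the adult subunit of the acetylcholine receptor (-1.25), and Lrp4, the agrin receptor (-0.37), were lower.

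Myogenic transcription factors did not move together. Myod1 (0.09, 95% interval -0.04 to 0.22) and Myog (-0.06, 95% interval -0.24 to 0.13), the factors of determination and differentiation, did not pass. Myf6, the factor of mature fibres, also called MRF4, stood at 9.75, 10.4 and 11.2 CPM with dexamethasone, against 2.11, 2.5 and 2.48 CPM in controls (log2 fold change 2.14 ± 0.11, adjusted p = 3.4e-11), and Myf5, a factor of myoblasts that lies next to it on chromosome 10, at 58.3, 44.8 and 52.6 CPM with dexamethasone, against 22.2, 24.7 and 23.8 CPM in controls (log2 fold change 1.14 ± 0.10, adjusted p = 1.9e-08). The 2 neighbours rose in every treated library. Pax7, the marker of satellite cells, was at 18.6, 20.0 and 19.9 CPM with dexamethasone, against 38.2, 38.2 and 36.4 CPM in controls, Notch3 at 67.8 against 139 CPM (dexamethasone against control) and Cdon, a receptor that promotes myogenesis, at 290.2 against 658 CPM, with log2 fold changes of -0.95, -1.04 and -1.18. Id1 (0.77) and Id3 (1.24), which inhibit myogenic factors, rose, and Id2 (-0.82) fell.

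Nearly all genes of cell division fell. Bulk RNA cannot tell fewer dividing cells from less of their RNA per cell, a limit that holds for every marker list here. All 35 genes of mitosis and G2/M were lowered more than 2-fold (median -2.88), beside 6.42% of all genes. Their summed level was 125, 173 and 147 CPM with dexamethasone, against 712, 739 and 738 CPM in controls. Replicate 2 was again nearest the controls. Nuf2, a kinetochore protein, was at 0.798, 1.68 and 1.46 CPM with dexamethasone, against 14.5, 14.4 and 13.7 CPM in controls, and Aurkb, a mitotic kinase, at 0.774, 1.59 and 1.34 CPM with dexamethasone, against 10.8, 11.6 and 11 CPM in controls. Of 35 genes of DNA replication and the G1/S step 34 were lowered, 19 of them more than 2-fold (median -1.11). The largest falls were of Ccna2, cyclin A2 (-3.18), Tk1, thymidine kinase (-2.5), and Mcm5, a subunit of the replicative helicase (-2.23). Rrm2, the small subunit of ribonucleotide reductase, was the exception: it stood at 138, 144 and 145 CPM with dexamethasone, against 99.7, 103 and 102 CPM in controls (log2 fold change 0.49 ± 0.06, adjusted p = 2.1e-06).

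Of 20 cell cycle inhibitors, D cyclins and their partners 6 were raised and 11 lowered. Ccnd1, cyclin D1, stood at 16.2, 24.4 and 20.1 CPM with dexamethasone, against 48, 47.3 and 48.9 CPM in controls (log2 fold change -1.25 ± 0.16, adjusted p = 6.6e-06). Trp53inp1, a p53-induced stress protein, was raised (118 against 33.2 CPM, dexamethasone against control; 1.83), as was Cdkn1b, the inhibitor p27 (0.35), whereas Cdkn2c, the inhibitor p18, was lowered (-0.73). Among 28 p53 targets 11 were raised (39.3%) and 8 lowered (28.6%), beside 20.6% and 23.2% of all genes. The cell adhesion gene Perp stood at 8.27 against 1.25 CPM and the mitotic gene Ckap2 at 2.18 against 13.8 CPM.

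Of 48 collagen and matrix genes 33 were lowered, 14 of them more than 2-fold, and 9 raised (median -0.68). Col1a1, a chain of type I collagen, stood at 246, 329.8 and 286 CPM with dexamethasone, against 1280.5, 1393 and 1226 CPM in controls (log2 fold change -2.18 ± 0.10, adjusted p = 7.4e-12). Col4a1 and Col4a2, which encode chains of type IV collagen, the network collagen of basement membranes, and share a promoter region on chromosome 8, rose together. Col4a1 stood at 989, 1113 and 1051 CPM with dexamethasone, against 355, 362 and 353 CPM in controls, and Col4a2 at 692, 786 and 728 CPM with dexamethasone, against 305, 308 and 281 CPM in controls. Neither gene's groups overlapped, and the log2 fold changes were 1.56 and 1.3. Tnc, the wound matrix protein tenascin C, was at 33.2, 51.1 and 46.5 CPM with dexamethasone, against 432, 436 and 388 CPM in controls (log2 fold change -3.26 ± 0.18, adjusted p = 4.2e-10), and Col8a1 (-2.83) and Fmod, a collagen-binding proteoglycan (-2.24), were also among the largest falls, while Col11a1, a fibrillar chain that went the other way (1.13), Fbln1, a fibulin (1.85), and Postn, periostin (1002 against 394 CPM; 1.35), rose.

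Matrix proteases and their inhibitors were more often lowered than raised, with 21 of 35 lowered and 9 raised (median -0.54). Timp3, a tissue inhibitor of metalloproteases, stood at 80.5, 96.2 and 93.5 CPM with dexamethasone, against 524, 502 and 539 CPM in controls (log2 fold change -2.53 ± 0.10, adjusted p = 7.1e-13), and Timp1 at 72.5 against 213 CPM (-1.56). The protease genes Adamts4 (-2.08) and Plat, tissue plasminogen activator (-1.49), fell, and Adamts1 (1.56), Adamts15 (1.44) and Mmp2 (0.57) rose with the serpin Serpine2 (1.33). Of 30 integrin and adhesion genes 16 were lowered and 6 raised (median -0.17). The collagen-binding integrin Itga11 stood at 4.15 against 27.3 CPM and the connexin 40 gene Gja5 at 21.9 against 91.6 CPM on the lowered side and Itga8 at 5.38 against 1.16 CPM on the raised side, each dexamethasone against control.

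Ligands and receptors of growth factor pathways changed in both directions. In the TGF-beta, BMP and activin list 23 of 39 genes were lowered and 11 raised (median -0.35). Grem1, a BMP antagonist, stood at 50.5, 39.1 and 40.8 CPM with dexamethasone, against 285, 269.6 and 303 CPM in controls (log2 fold change -2.72 ± 0.11, adjusted p = 2e-12). Inhba, the subunit of activin A, was lowered (7.03 against 27.8 CPM, dexamethasone against control; -1.98), whereas Inhbb, the subunit of activin B, was raised (320.2 against 137 CPM; 1.23), and the receptors Tgfbr1 (0.98) and Tgfbr3 (1.81) rose. Among 36 Wnt pathway genes 15 were lowered (41.7%) and 12 raised (33.3%), beside 23.2% and 20.6% of all genes. The median of the Wnt list was -0.11. The antagonists Dkk2 (-2.49) and Sfrp2 (-1.49) and the mediator Lef1 (-1.23) were lower, and the antagonists Apcdd1 (1.7) and Sfrp1 (0.94) and the feedback gene Axin2 (0.64) were higher.

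Of 44 other growth factors and receptors 22 were lowered and 13 raised (median -0.29). Vegfd, a lymphangiogenic growth factor, was at 28.6, 30.6 and 30.4 CPM with dexamethasone, against 3.89, 4.55 and 4.41 CPM in controls (log2 fold change 2.8 ± 0.11, adjusted p = 4.7e-13), and Ccn2, the matricellular factor CTGF, at 371, 371 and 405 CPM with dexamethasone, against 77.3, 76.9 and 78.1 CPM in controls (log2 fold change 2.3 ± 0.08, adjusted p = 6.1e-14). Edn1, endothelin-1, rose (20.2 against 3.32 CPM; 2.61) while its receptor Ednra fell (7.82 against 23.5 CPM; -1.59), each dexamethasone against control. Hbegf (-1.76) and Nrg1 (-2.1), ligands of EGF receptor family members, and Ccn4, a Wnt-induced matricellular gene (-1.92), were lowered. In a list of guidance factors 26 of 36 genes were lowered and 3 raised (median -0.50), the largest fall being that of Sema7a, a membrane semaphorin (13.6 against 62.2 CPM; -2.19).

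Immediate early and MAP kinase feedback genes were split, 13 raised and 19 lowered of 40 (median -0.11). Egr2 (-1.31) and Egr3 (-1.24), transcription factors induced by growth factors, fell, and Klf2 (1.16) and Nr4a3 (1.19) rose with Dusp1 and Errfi1. Of 33 inflammatory genes 25 were lowered, 9 of them more than 2-fold, and 5 raised (median -0.58). The cytokine gene Lif stood at 4.09, 5.11 and 4.54 CPM with dexamethasone, against 16.8, 18.7 and 16.7 CPM in controls (log2 fold change -1.93 ± 0.10, adjusted p = 4.8e-11). Il1b, a cytokine of inflammation, went against the list at 7.16, 5.87 and 5.28 CPM with dexamethasone, against 2.56, 3.14 and 2.92 CPM in controls (log2 fold change 1.08 ± 0.15, adjusted p = 1.4e-05), as did the lipopolysaccharide receptor gene Tlr4 (0.37). Among prostaglandin genes Ptgs2, the inducible cyclooxygenase that makes them, stood at 3.36, 3.48 and 3.79 CPM with dexamethasone, against 21.7, 22.1 and 21.8 CPM in controls. Pla2g4a, the phospholipase that supplies it and its neighbour on chromosome 1, stood at 5.41 against 12.9 CPM (dexamethasone against control). Hpgd, which inactivates prostaglandins, was higher at 12.2, 10.8 and 11.7 CPM with dexamethasone, against 2.69, 2.47 and 3.14 CPM in controls. In all 8 of 19 genes of this list were lowered and 4 raised.

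Of 28 interferon response genes tested 6 were lowered and 4 raised, a share near that of all genes, with Ifi47, a GTPase (-2.46), and Irf1, a transcription factor (-0.86), on the lower and Stat2 (0.62) on the higher side. Genes of ATF4 and the unfolded protein response fell in 26 of 38 cases and rose in 3 (median -0.30). Aldh1l2, a mitochondrial folate enzyme, stood at 16.9, 16.4 and 16.5 CPM with dexamethasone, against 42.4, 44.3 and 45.8 CPM in controls (log2 fold change -1.41 ± 0.07, adjusted p = 5.1e-12), and Trib3, a pseudokinase of the stress response, at 4.22 against 10.5 CPM (dexamethasone against control; -1.32). Vldlr, a lipoprotein receptor gene, rose (1.38), as did Crebrf, a regulator of the stress response (0.76).

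Metallothionein genes, whose small proteins bind zinc and copper, reached some of the highest levels of all raised genes. Mt2 stood at 1480.3, 1269 and 1548 CPM with dexamethasone, against 50.6, 55.4 and 52.6 CPM in controls (log2 fold change 4.76 ± 0.13, adjusted p = 1.1e-14) and Mt1 at 1189, 901 and 1323 CPM with dexamethasone, against 85.6, 86.7 and 85.2 CPM in controls (log2 fold change 3.73 ± 0.20, adjusted p = 3.4e-10). Both lie on chromosome 8 within a raised run, and the 2 genes are paralogs. Of 19 genes for metallothioneins, zinc and iron 12 were raised and 3 lowered (median 0.30). The raised ones included the zinc importer Slc39a14 (0.9) and the copper protein Cp, ceruloplasmin (345 against 120.0 CPM; 1.52), while the iron exporter Slc40a1 fell (-1.36). Of 33 antioxidant genes 12 were raised and 6 lowered, and Gpx3, the secreted glutathione peroxidase, stood at 746, 613 and 713 CPM with dexamethasone, against 98, 91.2 and 103 CPM in controls (log2 fold change 2.83 ± 0.14, adjusted p = 3.6e-11). Sod3, the extracellular superoxide dismutase, fell (-1.35).

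The largest rise among clock genes was that of Hlf, an output gene of low level, with a log2 fold change of 2.5. It stood at 1.13 ± 0.405 CPM with dexamethasone and 0.199 ± 0.0389 CPM in controls. Per1, given above, rose by less. Of 23 clock genes 11 were raised (47.8%) and 4 lowered (17.4%), beside 20.6% and 23.2% of all genes. Arntl, the activator BMAL1, fell, at 10.4, 11.7 and 11.5 CPM with dexamethasone, against 17.8, 18.7 and 19.4 CPM in controls (log2 fold change -0.73 ± 0.10, edgeR adjusted p = 5.6e-06). Nfil3 (0.8), Rora (0.51) and Per2 (0.44) rose. The list median of 0.04 turned negative without the composition correction. Small heat shock protein genes Hspb7 (1.07), Hspb1 (0.9) and Hspb8 (0.82) rose. The list of 27 chaperones as a whole had 8 raised and 4 lowered (median 0.04, negative without the composition correction). In the autophagy and lysosome list 23 of 40 were raised and 3 lowered, with Npc1, which exports cholesterol from lysosomes (0.83), and Hexa, a lysosomal hexosaminidase (0.55), in front. The 3 lowered became 1 without dexamethasone replicate 2, control replicate 1 or control replicate 3.

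Of 55 nuclear-encoded subunits of oxidative phosphorylation 17 were raised, by at most 0.44 (Ndufs7, of complex I), and 0 lowered. That count rests on the model and the libraries: it was 6 without the composition correction, 33 with only the 6 compared libraries, 9 without dexamethasone replicate 3 and 11 without control replicate 3. Of 13 mitochondrially encoded proteins 2 were raised, mt-Co1 (0.53) and mt-Atp6 (0.92), and 1 to 2 in the fits that left out a library; mt-Co1 kept its call only when dexamethasone replicate 2 was the one left out. The 13 had a median log2 fold change of 0.47 and a highest of 0.92, and for 10 of them the groups did not overlap, against 59.3% of all genes. Their summed level was 16822, 15257 and 16548 CPM with dexamethasone, against 11894, 10640.5 and 11844 CPM in controls, higher in each dexamethasone library than in each control. Mitochondrial transcripts took 1.68 to 1.82% of counts with dexamethasone and 1.26 to 1.38% in controls. The spread used to test these genes was estimated over all 18 libraries. They include replicate 2 of 20 µM ginsenoside without dexamethasone, with 2.79% mitochondrial counts against 1.26% to 1.91% in the other 17. A mitochondrial gene without a call is therefore not shown to be unchanged. Of 5 nuclear pseudogenes compared with the mitochondrial genes, Gm28437, Gm10925, Gm28661 and Gm28439 had all of their 31-base words in a mitochondrial gene, and Gm29216 had 97.2% of its words in mt-Co1, so how reads were split between them cannot be checked here. Gm28437 (0.71), Gm10925 (0.68) and Gm28661 (0.42) were called raised, although Gm10925 lost its call without dexamethasone replicate 1 (edgeR adjusted p = 0.089) or 3 (0.093) or control replicate 1 (0.078) or 2 (0.11), and Gm28661 without dexamethasone replicate 1 (0.082) or 3 (0.071) or control replicate 2 (0.074) or 3 (0.053). Gm29216 stood at 62.4, 101 and 160.0 CPM with dexamethasone, against 62.7, 67.8 and 0 CPM in controls and was not called. None (0) of 48 cytosolic ribosomal protein genes was called (median -0.07); 10 were lowered with only the 6 compared libraries in the model and 0 by DESeq2, and 1 of the 48 had an unadjusted p below 0.05.

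Of 19 listed long noncoding RNAs 4 were raised and 4 lowered, 21.1% each beside 20.6% and 23.2% of all genes. Among the raised was the nuclear RNA Malat1, at 842 CPM with dexamethasone and 535 CPM in controls (log2 fold change 0.65).

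Markers of cells other than myotubes were followed across the same libraries. Of 21 undifferentiated myoblast markers 13 were lowered, 8 of them more than 2-fold, and 5 raised (median -0.72), and their summed level was 3399.9, 3456 and 3400.0 CPM with dexamethasone, against 3705, 3743 and 3725 CPM in controls. Vcam1 stood at 20.9 against 53.3 CPM and Cd34 at 17 against 40.2 CPM on the lowered side (dexamethasone against control). Myf5 at 51.9 against 23.6 CPM and Id3 at 34.6 against 14.7 CPM were among the 5 raised markers. Of 13 fibroblast markers 9 were lowered and 2 raised, with Dpt (0.416 against 4.07 CPM), Lum (0.144 against 1.75 CPM) and Pi16 (1.24 against 6.51 CPM) on the lowered and Pdgfra (39.2 against 15.2 CPM) and Ly6a (247 against 89.3 CPM) on the raised side. Their sum was 2609, 3032 and 2748 CPM with dexamethasone, against 5442, 5931 and 5560.4 CPM in controls, and Tcf21 had 0 counts and Thy1 at most 1. Of 11 tested osteoblast and chondrocyte markers 6 were lowered and 0 raised, with Runx2 at 21.9 against 34.8 CPM and Dmp1 at 0.552 against 5.68 CPM, Dlx5 at 0 counts and a sum of 86.2, 80.4 and 83.5 CPM with dexamethasone, against 115, 114 and 120.3 CPM in controls. Of 27 smooth muscle and actin cytoskeleton genes 19 were lowered and 3 raised (median -0.39), with Actg2, the enteric smooth muscle actin, at 16.5 against 49.2 CPM and a sum of 16240.5, 17103 and 16720.2 CPM with dexamethasone, against 19704, 19655 and 19806 CPM in controls. Immune and endothelial markers were near the detection floor, with 1 of 6 raised, 2 lowered and a sum of 3.46, 3.38 and 2.73 CPM with dexamethasone, against 3.55, 3.62 and 3.9 CPM in controls. Tie1 had 0 counts, and Ptprc and Pecam1 had 0 counts with dexamethasone and at most 2 in a control. The raised count was 0 without dexamethasone replicate 1 or 2 or control replicate 1 or 2. The part of these cells in the other results was not tested.

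The same response was measured in 12 further libraries, in which myotubes received 10 µM or 20 µM ginsenoside Rc with or without dexamethasone; they share no library with the comparison above. Replicate 2 of 20 µM ginsenoside without dexamethasone stood apart, at -47.9 on the second principal component against -5.38 to 10.6 for the other 17 libraries, with 2.79% mitochondrial counts against 1.26% to 1.91%. Of all genes tested, 21.1% were called raised and 23% lowered with dexamethasone at 10 µM, and 23.5% and 25.4% at 20 µM. Of the 534 genes raised more than 2-fold, 530 were higher with dexamethasone at 10 µM and 493 were called raised there, and at 20 µM the numbers were 530 and 506. Of the 991 genes lowered more than 2-fold, 903 were called lowered at 10 µM and 916 at 20 µM, and 0 of either set were called in the opposite direction. Without the library that stood apart, 497 of the 534 were called raised and 902 of 990 tested were called lowered at 20 µM, beside 25.4% and 25.6% of all genes. Median log2 fold changes of the raised set were 1.52 without ginsenoside, 1.58 at 10 µM and 1.64 at 20 µM, and of the lowered set -1.63, -1.63 and -1.69. Fkbp5 changed by 4.17 without ginsenoside, 4.23 at 10 µM and 4.28 at 20 µM. Igf1 changed by -3.49, -3.82 and -4.13 in the same order, and Trim63 by 1.31, 1.29 and 1.54. A test of the difference between responses called 0 genes at either dose by edgeR. Unadjusted p lay below 0.05 for 327 genes at 10 µM and 816 at 20 µM, and DESeq2 called 0 and 1. Without the library that stood apart, edgeR called 0 genes at 10 µM and 2 at 20 µM. Both were chosen here after their values were seen. Lgr6, a receptor for R-spondins, fell further with 20 µM ginsenoside (-1.95) than without it (-1.13; edgeR adjusted p of the difference 0.0255, and 0.12 with all libraries). Vgll2, a muscle cofactor of TEAD transcription factors, was at 0.05 with 20 µM ginsenoside and -0.71 without it (edgeR adjusted p of the difference 0.0255, and 0.89 with all libraries).

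The lists above differ in how far their counts lie from the 20.6% raised and 23.2% lowered of all genes, as the plot of all 44 lists shows.

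**Figure D5:**
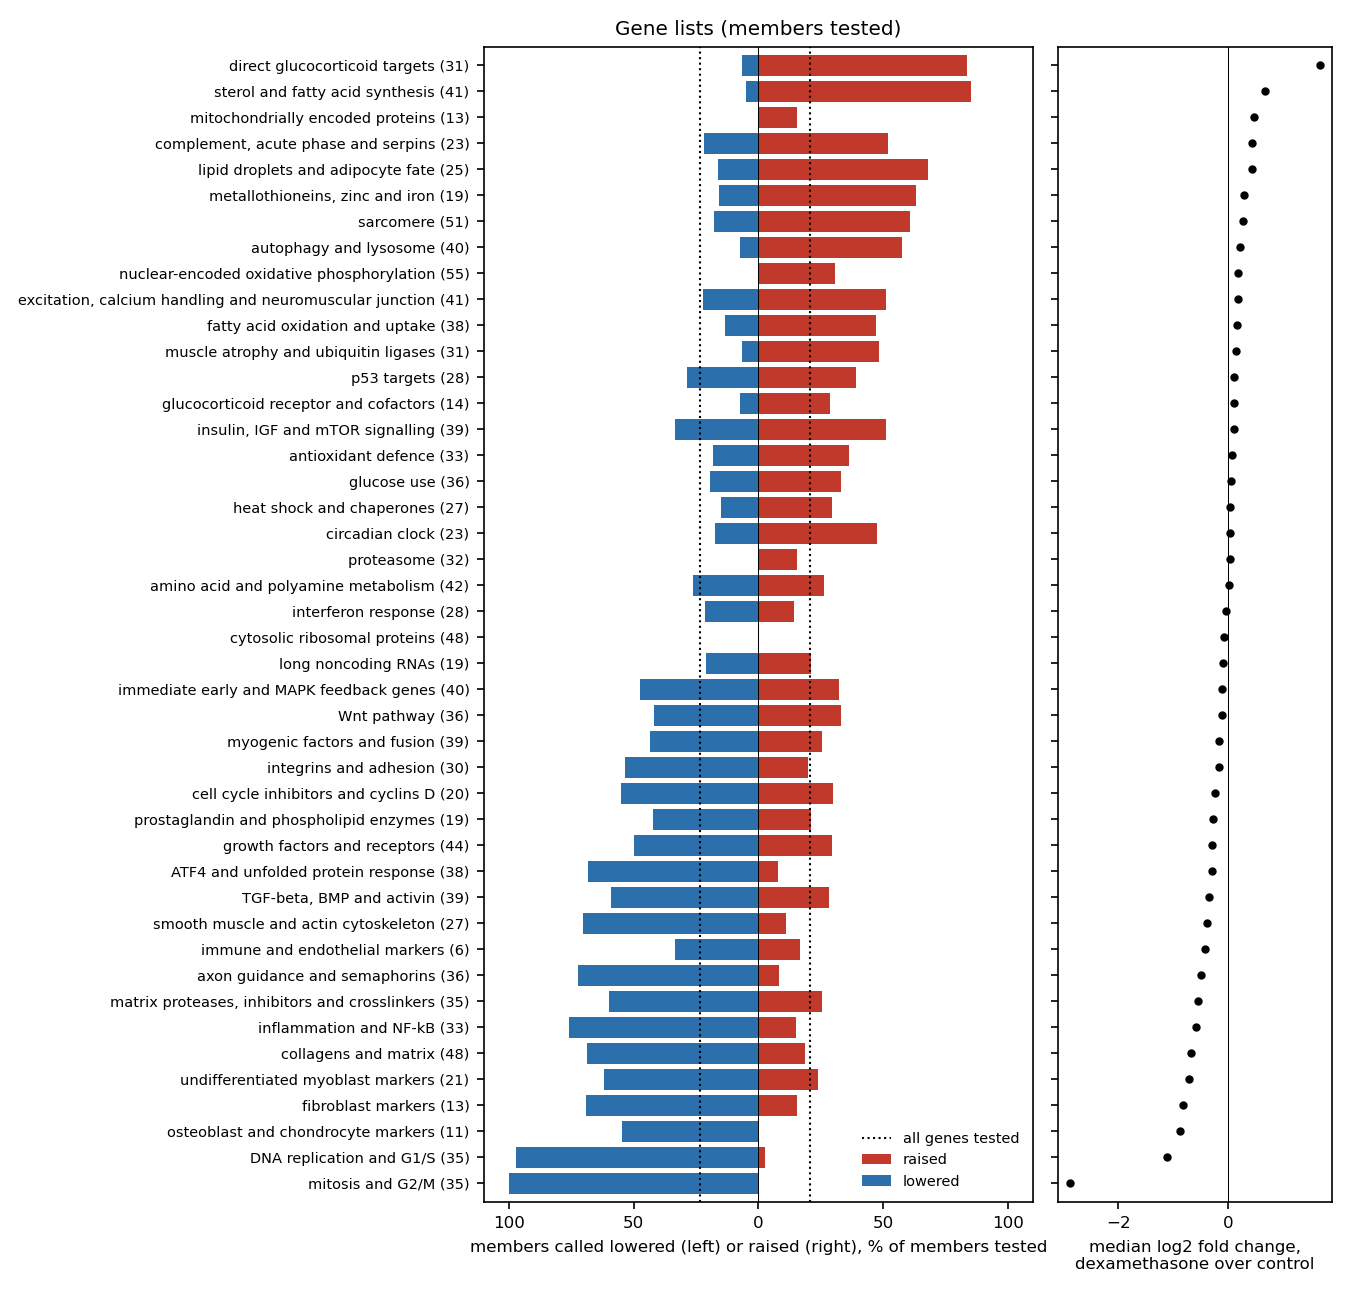
Left, percent of tested members of 44 gene lists called raised (red, to the right) or lowered (blue, to the left), with dotted lines at the 20.6% and 23.2% of all genes tested. Right, median log2 fold change of dexamethasone over control for each list, which runs from -2.88 for mitosis and G2/M genes to 1.67 for direct glucocorticoid targets.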

How the data were processed

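RNA-seq of 18 C2C12 libraries, 3 in each of 6 groups, was analysed for 6 of them, 3 with dexamethasone and 3 controls. The authors deposited an expected count per gene and library, which is an estimated count and need not be whole; 9.27% of the values were not whole. Per the submitters' processing notes, FastQC 0.11.9, Trim Galore 0.6.5, STAR 2.7.3a, RSEM 1.3.3 and the mouse builds GRCm38 and mm10 were named; no source used here gives the annotation release or the strand setting. Every column of values could be matched to a library by its title (0 unmatched). IDs without a name in the annotation, 360 of 48795, held 0.0185% of counts; since they are genes, library sizes and tests include them under their IDs. All titles name the same batch.

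Counts were rounded and fitted with edgeR 4.0.16 (R 4.3.3) over all 18 libraries with 1 mean per group, after edgeR's filter on low counts and TMM scaling for composition, and dexamethasone was set against control with the quasi-likelihood test and Benjamini-Hochberg adjustment over 15436 genes. DESeq2 1.42.0 was an alternative. Library totals of the 6 ran from 36523033 to 44021589 counts. The method was also run on simulated counts with known changes in a small set of genes. That setting did not mimic a response as broad as this one.

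Genes are named by a rule: called, at an average of at least 1 log2 CPM and without overlap of the groups, the 15 largest rises and falls, the 6 largest gains and losses in CPM per kilobase of exon, up to 4 rises and 4 falls per list, all members of lists with at most 16, and a few set names. Members and lists were chosen with earlier results of these data known. The myotube markers were set names. Genes outside the rule, such as members of neighbouring runs, Fam107a, Col11a1, Igf2, Sesn3, Hlf, Ifi47, Fabp4, Hif3a and Zbtb16, were chosen after their values were seen. The listed names Itgb1d, Caveolin, Ctgf, Linc-md1, Cyrano and Oip5os1 matched no gene. Promoter sequences are RefSeq's. Some members of lists and runs are not reported here.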

Additional observations from a re-analysis of the deposited data

How the results depend on the processing

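Of 6755 calls (3177 raised, 3578 lowered), the counts stayed within 1.5 times under every alternative except a test against a 1.2-fold change, which called 3440 genes (1348 raised, 2092 lowered). They were 6765 with median-ratio size factors, 6761 without composition scaling, 6257 with no filter on low counts, 6604 by DESeq2, 7934 with only the 6 compared libraries in the model and 8104 with replicate 2 of 20 µM ginsenoside left out of it. Leaving out 1 library of the comparison gave 5834 to 6163 calls, 2724 to 2960 raised and 3103 to 3277 lowered. Leaving out that ginsenoside library, chosen for the difference between responses after seeing the data, gave 2 genes that differed at 20 µM instead of 0, and 0 at 10 µM in both fits. A call in the opposite direction occurred for 0 genes in each of these fits. Counts for lists moved by more than 1.5 times in 82 recomputations and by less in 1150.

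The replicate block gave 6652 calls, 3134 raised and 3518 lowered. Same-numbered libraries had deviations correlated at -0.0749, -0.107 and 0.0275, so the numbers were not taken as pairs; Mymk lost its call under the block.

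Of the genes named, only the uncalled Hsp90aa1 and Ptges3 changed sign. Hsp90aa1 was at -0.023 (log2) without composition scaling and at -0.006 to 0.083 with 1 library left out. Ptges3 was at 0.005 with median-ratio size factors, 0.002 with no filter, 0.007 by DESeq2, 0.003 with only the 6 libraries, and -0.018 to 0.026 with 1 library left out. The causes were not tested.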
